A study of Mus musculus with 12 samples.

Results

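The cytochrome P450 and conjugation enzymes of the jejunal epithelium were followed in control mice and in mice labelled as a knockout of Fzd5, the gene for the Wnt receptor Frizzled 5. Members were all genes of the deposited table named Cyp with a digit (Cyp51 left out), Ugt1 or Ugt2, Sult with a digit, or Gst with the class letter a, m, p, t, o or k. Pseudogene names were left out, and at least 1 TPM (transcript abundance corrected for length, with a fixed sum per library) was required in at least 3 of the 12 libraries. Of 161 names that matched, 66 genes passed, out of 14510 genes that passed the same minimum and 55421 in the table. They comprised 19 P450s of the Cyp1, Cyp2 and Cyp3 families, 8 of the Cyp4 family, 3 other P450s, 12 UDP-glucuronosyltransferases (Ugt), 5 sulfotransferases (Sult) and 19 glutathione S-transferases (Gst). Epithelial cells were taken from the jejunum of Ctrl and Fzd5KO mice at day 1 and day 3 and profiled by bulk RNA-seq of total RNA, with 3 libraries in each of the 4 groups. The sources used here do not give the strain, age, the event from which the days were counted, the part of Fzd5 that was deleted, or the driver of the deletion. They also do not say whether replicates were separate animals, so the p-values reflect only how far these libraries lay apart, part of which may be technical.

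P450 enzymes of the smooth endoplasmic reticulum insert oxygen into drugs, dietary toxins, steroids and fatty acids, with electrons that pass from NADPH through the reductase Por. Ugt, Sult and Gst enzymes then attach glucuronic acid, sulfate or glutathione, and transporters such as Abcc2 and Abcb1a move the products back into the gut lumen. In the small intestine this machinery sits mainly in villus enterocytes, and several of its genes are set by factors that sense foreign compounds or oxidative stress: the pregnane X receptor Nr1i2, the constitutive androstane receptor Nr1i3, the aryl hydrocarbon receptor Ahr and the antioxidant factor Nfe2l2.

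Levels are TPM, which are scaled to a fixed total in each library and divided by transcript length, so genes can be compared in level but the sequencing depth is unknown. Differences are Fzd5KO minus Ctrl in log2(TPM + 1) with their standard error (SE), a scale that understates changes of low genes. They were tested with limma, adjusted over all 14510 genes by the Benjamini-Hochberg method, and called where the adjusted p was under 0.05. Fzd5 itself read 31.9 to 33.1 TPM in Fzd5KO and 43.5 to 49.4 TPM in Ctrl at day 1, and 37.8 to 39.7 TPM against 60.5 to 68.2 TPM at day 3, so the groups did not overlap but most of its signal remained; which part of the gene the remaining reads cover was not tested. Ctrl day 1 replicate 1 had more genes above 0 (24467) than the other libraries (21506 to 22613), and without it 28 rather than 31 members were lower at day 1 and 22 rather than 23 were higher at day 3.

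Markers of cell types differed between the groups beside the enzymes. Summed TPM of 12 enterocyte markers lay between 25310 and 26430 in Ctrl and 27640 and 28490 in Fzd5KO at day 1, although 6 of the 12 were called lower and 3 higher (median −0.17). By day 3 it spanned 20580 to 21780 in Ctrl and 44810 to 46410 in Fzd5KO, where 11 of the 12 markers were called higher and Lct was not called. The 5 crypt stem cell markers summed to 351.5 to 369 TPM in Ctrl and 84.1 to 88.6 TPM in Fzd5KO at day 1, and to 532 to 566 and 50.3 to 52.7 TPM at day 3. All 5 stem, 4 proliferating, 5 goblet, 4 Paneth, 5 enteroendocrine, 4 tuft and 3 erythroid markers were called lower at day 3. Among immune markers, 3 of 3 of B and plasma cells, 3 of 4 of myeloid cells and 5 of 5 of T cells were called higher, the last with sums of 33.5 to 35.8 TPM in Ctrl and 131 to 146 TPM in Fzd5KO, against 144.5 to 160.4 and 92.2 to 109 TPM at day 1. Of the hepatocyte markers, Fgb was at 0 in 11 libraries, Alb reached at most 0.59 and Serpina1a at most 0.76 TPM, while Ttr and Cps1, the other 2 of 5, were called lower in Fzd5KO on both days. In a bulk sample, fewer cells of a type and less RNA per cell cannot be told apart. The part of these shifts in the enzyme results was not tested.

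The 66 members together held 0.508 to 0.669% of the TPM of a library. Their sum was 6444 ± 263 TPM (SD, n = 3) in Ctrl day 1, 5630 ± 52.1 in Fzd5KO day 1, 5236 ± 132 in Ctrl day 3 and 6477 ± 202 in Fzd5KO day 3. Libraries did not overlap between genotypes on either day, and an exact two-sided permutation test gave p = 0.1, the smallest that 3 against 3 allows. On TPM as deposited the order turned over: the sum was lower in Fzd5KO at day 1 and higher at day 3, when the controls were at their lowest. This sum and the family sums below were not taken under another scaling, and the median change of all genes was −0.14 at day 1. Cyp4f14 was the most abundant member in Ctrl day 1 (587 ± 23.9 TPM), followed by Gstp1 (529 ± 28.8), Gsta1 (471 ± 30.6), Ugt2b34 (351 ± 6.80) and Cyp3a11 (344 ± 13.6; all SD, n = 3). Of neighbours in this order, the libraries of Ugt2b34 and Cyp3a11 overlapped and those of the other pairs did not.

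**Figure D1:**
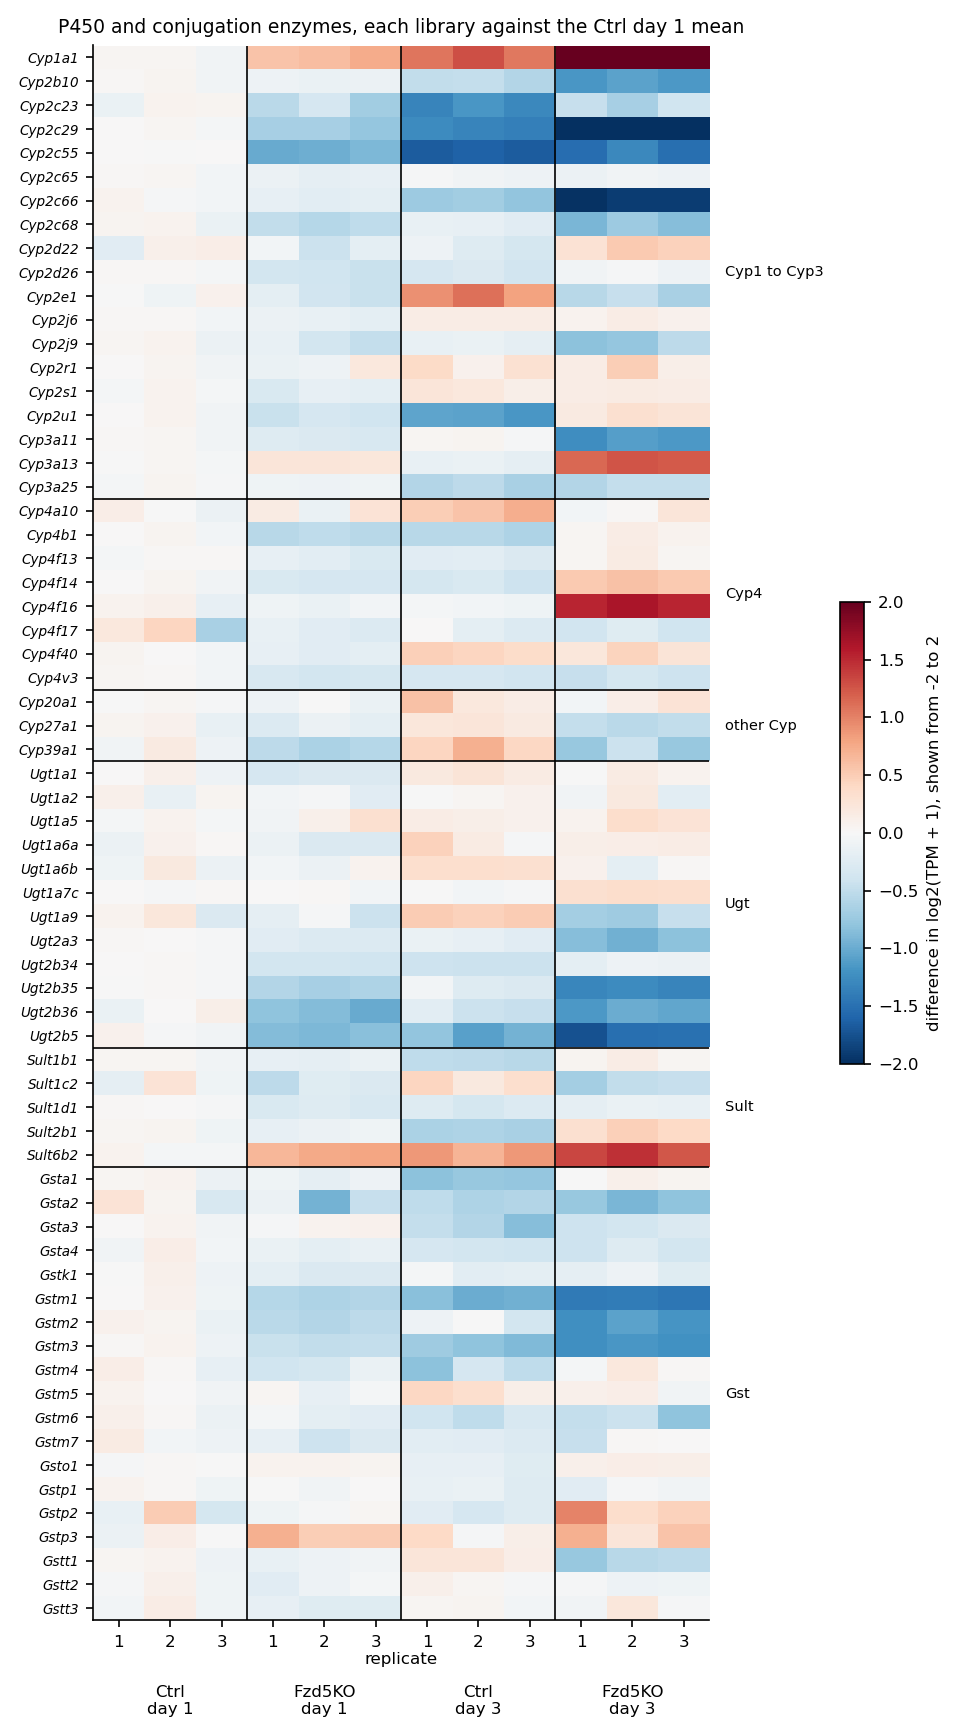
Each row is a member, grouped by family, and each column a library, with the colour giving its log2(TPM + 1) minus the mean of Ctrl day 1, shown from −2 to 2. Cyp1a1, Cyp3a13 and Cyp4f16 are among the reddest and Cyp2c29 and Cyp2c66 among the bluest rows in Fzd5KO day 3, while libraries of a group mostly share a colour.

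At day 1 the enzymes were mostly lower in Fzd5KO. Of 66 members, 31 fell and 4 rose, where 22.8% of all tested genes were lower and 2.13% higher (25.0% in either direction). Their median log2 change was −0.22, against −0.14 for all genes. The 4 that rose were Cyp1a1, Cyp3a13, Gstp3 and Sult6b2. Fzd5KO libraries lay wholly below Ctrl for 38 members and wholly above for 5, and groups of 43.4% of all genes did not overlap. These low values depend on the scaling. Dividing by median-of-ratios size factors moved the median of all genes to 0.0098 and left 18 members lower and 6 higher. Relative to the middle of all genes, fewer enzymes were then low. Quantile normalization left 21 lower and 5 higher. Calls among all 14510 genes, in either direction, also dropped, from 3622 to 2216 under median-of-ratios scaling and 1771 after quantile normalization. Day 1 falls of Cyp2c65, Cyp2c66, Cyp2j6, Cyp2j9, Cyp2s1, Cyp4f13, Cyp4f40, Cyp27a1, Gstk1 and Sult1b1 were not called under either scaling, those of Ugt1a1, Ugt2a3 and Sult1d1 not under median-of-ratios scaling (adjusted p = 0.0844, 0.183 and 0.0508) and that of Cyp2c23 not after quantile normalization (0.0799).

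By day 3 rises and falls were about equal in number. Here 23 members rose and 22 fell in Fzd5KO, where 24.3% of all genes were higher and 38.5% lower (62.8% in either direction). Of the 22, Cyp2e1, Cyp4a10 and Sult1c2 passed the minimum only through control libraries, so that being lower was set by the filter. The median change of the members was −0.042, against −0.14 for all genes. Fzd5KO libraries lay wholly above Ctrl for 22 members and wholly below for 25, and 66.5% of all genes did not overlap. The range of change widened from −0.96 to 0.74 at day 1 to −2.27 to 2.09 at day 3.

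The genotype comparisons of the separate days use different control libraries, and their calls could be set beside each other. Of the 31 members that were lower at day 1, 14 were lower again at day 3, 7 were no longer called and 10 were higher. Those 10 were Cyp2c23, Cyp2c55, Cyp2d26, Cyp2u1, Cyp4b1, Cyp4f13, Cyp4f14, Sult1b1, Sult1d1 and Ugt2b34. Among them, the day 1 calls of Cyp4f13 and Sult1b1 were lost under both other scalings and that of Cyp2c23 after quantile normalization. Sult1d1 lost its day 1 call under median-of-ratios scaling and its day 3 call after quantile normalization. The day 3 call of Cyp2c55 was lost when only the day 3 libraries were fitted. The 14 lower on both days held Cyp3a11, 3 Cyp2c genes (Cyp2c29, Cyp2c66, Cyp2c68), Cyp2j9, Cyp27a1, Cyp39a1, 4 Ugt2 genes (Ugt2a3, Ugt2b5, Ugt2b35, Ugt2b36) and Gstm1, Gstm2 and Gstm3. Of these 14, the day 1 calls of Cyp2c66, Cyp2j9 and Cyp27a1 were lost under both other scalings and that of Ugt2a3 under median-of-ratios scaling. All 4 that rose at day 1 were also higher at day 3. A further 9 were called higher and 8 lower at day 3 without a call at day 1, and 14 were called on neither day. Of all genes, 38.5% were lower and 24.3% higher at day 3. How many of all genes made each of these moves between the days was not counted, so the moves are not shown to be particular to the members. In a direct test of the difference between the days' effects, 22 members had a more positive and 13 a more negative effect at day 3, against 25.3% and 19.1% of all genes (44.3% in either direction). Of the 13, Cyp2e1 and Cyp4a10 reached 1 TPM only in Ctrl day 3, so their direction was set by the filter. Quantile normalization gave 20 and 19 members, where 6357 of 14510 genes were called in either direction.

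**Figure D2:**
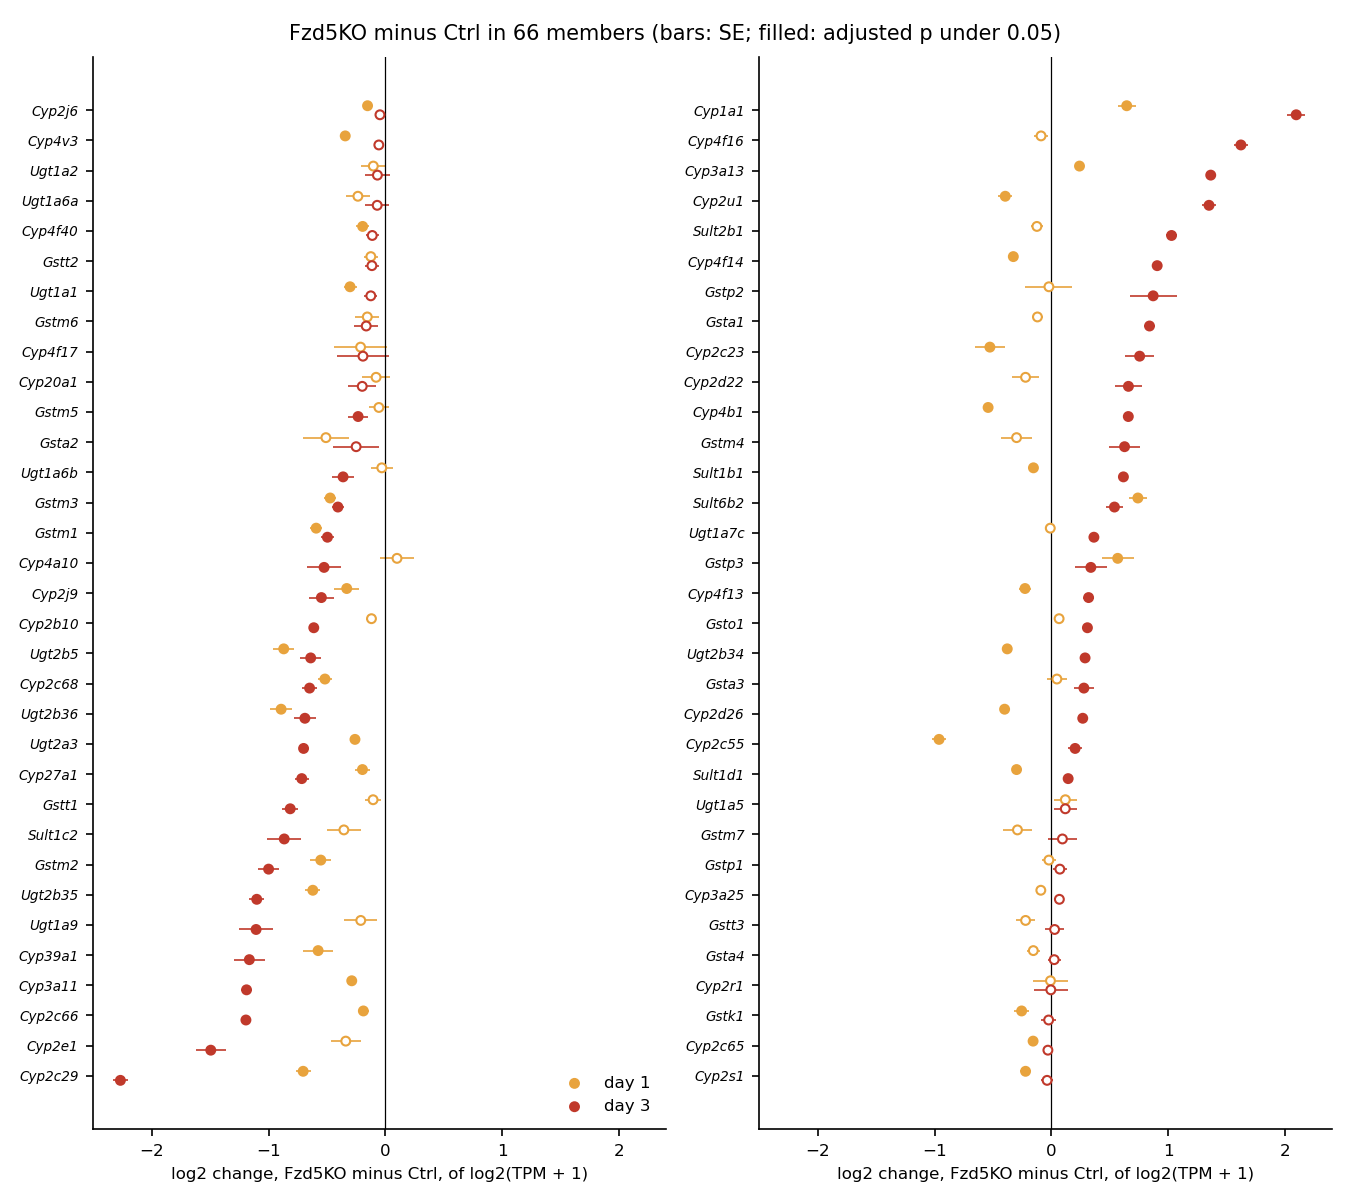
Points give the log2 change of log2(TPM + 1), Fzd5KO minus Ctrl, for each of the 66 members at day 1 (orange) and day 3 (red), with SE bars, ordered by the day 3 change over both panels, and filled where the adjusted p was under 0.05. Day 1 points gather left of 0 while day 3 points run from Cyp2c29 (−2.27) to Cyp1a1 (2.09).

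The Cyp3a genes, which encode the main drug-oxidizing P450s of the gut and liver, included 2 that moved in opposite directions and 1 that was not called. Cyp3a11, the mouse gene most often used as a readout of the pregnane X receptor, read 349.6, 354 and 329 TPM in Ctrl day 1, 288, 282 and 275 in Fzd5KO day 1, 352, 358 and 337 in Ctrl day 3 and 144, 160.1 and 154 in Fzd5KO day 3. Control libraries kept one level on both days, and Fzd5KO libraries lay below them at day 1 and far below them at day 3. Its change was −0.29 ± 0.044 (SE; adjusted p = 0.00122) at day 1 and −1.19 ± 0.044 (adjusted p = 1.42e-09) at day 3, when Fzd5KO held 43.7% of the control mean. Cyp3a13, a P450 known to be expressed along the intestine, read 271, 279 and 265 TPM in Ctrl day 1, 323, 321 and 319 in Fzd5KO day 1, 245, 248 and 240.2 in Ctrl day 3 and 604, 651 and 635 in Fzd5KO day 3. It stood above Ctrl in all Fzd5KO libraries on both days, by 0.24 ± 0.033 (adjusted p = 0.000647) and 1.36 ± 0.033 (adjusted p = 7.14e-11), or 2.58-fold at day 3. Cyp3a25, the third measured Cyp3a gene, was not called on either day: it read 265 to 282 TPM in Ctrl and 254 to 256 TPM in Fzd5KO at day 1, and 172 to 189 and 181 to 194 TPM at day 3. So at day 3 the level of Cyp3a13 was the highest of the 3 in Fzd5KO and that of Cyp3a11 the highest in Ctrl. Summed over all 19 Cyp1 to Cyp3 members, Ctrl day 3 held 1664 ± 48.3 TPM and Fzd5KO day 3 held 1831 ± 60.7 (SD, n = 3; exact permutation p = 0.1).

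The sequences before the starts of these opposed genes, and of Cyp2c29 and Cyp1a1, which changed most, are printed to show what the windows hold. Sequences are from the RefSeq promoter table (GRCm38.p6), 5′ to 3′ on the gene's strand, at most 250 bases ending before the start and without any base in a GENCODE M21 exon. Capitals mark matches, on either strand, to any of 7 short motifs: TNGCGTG (xenobiotic response element core), AAGTCCA (HNF4 core), AGTTCA (nuclear receptor core), TTTATNG (caudal factor core), ATCAAAG (TCF/LEF), CACGTG (E-box) and GTTAAT (HNF1 core).
Cyp3a11, chr5:145879965-145880104, minus strand: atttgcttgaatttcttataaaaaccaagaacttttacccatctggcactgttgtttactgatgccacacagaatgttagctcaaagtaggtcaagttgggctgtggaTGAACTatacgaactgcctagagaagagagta
Cyp3a13, chr5:137921620-137921869, minus strand: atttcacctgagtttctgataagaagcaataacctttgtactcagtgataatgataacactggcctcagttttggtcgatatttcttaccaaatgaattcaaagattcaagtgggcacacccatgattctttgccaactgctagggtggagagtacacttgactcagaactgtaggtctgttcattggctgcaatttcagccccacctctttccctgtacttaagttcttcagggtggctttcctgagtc
Cyp2c29, chr19:39286835-39287073, plus strand: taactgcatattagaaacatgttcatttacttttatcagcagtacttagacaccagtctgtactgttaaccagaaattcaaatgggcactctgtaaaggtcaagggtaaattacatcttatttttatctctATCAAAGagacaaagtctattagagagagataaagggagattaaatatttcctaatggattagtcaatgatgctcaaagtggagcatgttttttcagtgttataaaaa
Cyp1a1, chr9:57697363-57697612, plus strand: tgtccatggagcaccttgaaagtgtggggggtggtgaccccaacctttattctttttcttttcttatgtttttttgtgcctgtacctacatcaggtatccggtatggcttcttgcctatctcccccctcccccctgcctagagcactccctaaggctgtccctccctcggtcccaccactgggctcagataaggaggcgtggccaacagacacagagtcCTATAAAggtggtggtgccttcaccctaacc
The Cyp3a11 window held a nuclear receptor core 142 to 137 bases before the start. It also held an HNF4 core 107 to 101 bases before, in the 110 bases that GENCODE draws as exon and that are not printed. None of the 7 motifs' letters were in the Cyp3a13 window. Cyp2c29 had a TCF/LEF match at 119 to 113 bases, and Cyp1a1 a caudal core match at 31 to 25 bases that overlaps a TATA sequence. The letters of the xenobiotic response element core were not in the 250 bases of the Cyp1a1 window. Sequence farther upstream was not searched for any gene. The Cyp1a1 and Cyp2c29 windows lie inside the GENCODE span of their genes, since longer transcripts start farther upstream.

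Over all 66 members, 57 had a promoter entry, with 70 windows in all. The HNF1 core was in 14.3% of member windows and 6.43% of all 32851 windows, the HNF4 core in 7.14% and 3.36%, and the nuclear receptor core in 12.9% and 11.8%. The xenobiotic core was in 5.71% and 4.1%, the caudal core in 11.4% and 9.81%, the E-box in 2.86% and 6.02%, and the TCF/LEF letters in 1.43% and 3.21%. Neighbouring members can share promoter sequence by descent, and these shares carry no test.

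Cyp1a1, which oxidizes polycyclic aromatic compounds and is the classical target of the aryl hydrocarbon receptor, had the largest rise. It read 3.31, 3.3 and 3.02 TPM in Ctrl day 1, 5.25, 5.48 and 6.02 in Fzd5KO day 1, 7.79, 9.33 and 7.76 in Ctrl day 3 and 37.6, 39.4 and 38.8 in Fzd5KO day 3. Each group stood apart from the others, and Fzd5KO day 3 lay above every other library by a wide margin. The changes were 0.64 ± 0.076 (adjusted p = 0.00023) and 2.09 ± 0.076 (adjusted p = 1.16e-09), or 1.74-fold and 4.65-fold of the control means. The difference between the days was 1.45 ± 0.11 (adjusted p = 8.34e-07). Its relatives Cyp1a2 and Cyp1b1 did not pass the minimum. Cyp1a2 was listed at 0 in every library, and Cyp1b1 reached at most 0.11 TPM. In 50-base words of its transcripts, 3.43% of those of Cyp1a1 also occur in Cyp1a2.

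Cyp2c genes encode epoxygenases and hydroxylases of arachidonic acid and drugs. All 6 members were called lower at day 1 (22.8% of all genes) and parted at day 3. The day 1 calls of Cyp2c65 and Cyp2c66 were lost under both other scalings and that of Cyp2c23 after quantile normalization. Cyp2c29, known in liver as a target of Nr1i3, read 27.96, 28.7 and 27.03 TPM in Ctrl day 1, 17.2, 17.2 and 15.9 in Fzd5KO day 1, 11.1, 10.6 and 10.2 in Ctrl day 3 and 1.32, 1.33 and 1.6 in Fzd5KO day 3. Levels stepped down in that order of groups without overlap, to 13.3% of Ctrl in Fzd5KO day 3. Its changes were −0.70 ± 0.063 (adjusted p = 3.61e-05) and −2.27 ± 0.063 (adjusted p = 1.72e-10), the largest fall of any member. Cyp2c66 read 82.3, 76.9 and 74.9 TPM in Ctrl day 1, 69.8, 67.4 and 67.6 in Fzd5KO day 1, 46.9, 47.8 and 44.8 in Ctrl day 3 and 19.02, 20.1 and 20.1 in Fzd5KO day 3. It fell by 0.19 at day 1 (adjusted p = 0.0119), a call lost under both other scalings, and changed by −1.19 ± 0.045 at day 3 (adjusted p = 1.49e-09). Cyp2c68 followed at −0.52 ± 0.061 and −0.65 ± 0.061 (adjusted p = 0.000231 and 3.03e-06).

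Cyp2c55, an intestinal and colonic Cyp2c, read 46.4, 45.7 and 46.2 TPM in Ctrl day 1, 22.4, 22.9 and 24.2 in Fzd5KO day 1, 13.9, 14.4 and 13.9 in Ctrl day 3 and 15.4, 18.4 and 15.5 in Fzd5KO day 3. Its main step was at day 1, where Fzd5KO held 50.3% of Ctrl (−0.96 ± 0.062; adjusted p = 3.39e-06). At day 3 both genotypes were low, with a small excess in Fzd5KO (0.20 ± 0.062; adjusted p = 0.0143) that was not called when only the day 3 libraries were fitted (adjusted p = 0.0599). Cyp2c65 read 149.9 to 160.0 TPM in Ctrl day 1 and 137 to 143 TPM in Fzd5KO day 1 and was called lower at day 1, a value that turned to 0.017 under median-of-ratios scaling. Cyp2c23, a low gene at 2.05 to 2.49 TPM in Ctrl day 1, was lower at day 1 (−0.53 ± 0.13; adjusted p = 0.0128, or 0.0505 without Fzd5KO day 1 replicate 3) and higher at day 3 (0.75 ± 0.13; adjusted p = 0.000299). The lowest libraries were the day 3 controls: Ctrl day 3 read 0.33, 0.48 and 0.36 TPM, while Fzd5KO read 1.05 to 1.63 TPM at day 1 and 1.1 to 1.53 TPM at day 3.

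Other Cyp2 genes showed each pattern again. Cyp2b10, the classical target of Nr1i3, read 284, 290.2 and 265 TPM in Ctrl day 1, 259, 256 and 257 in Fzd5KO day 1, 198, 202 and 186 in Ctrl day 3 and 124, 132 and 125 in Fzd5KO day 3. It was not called at day 1 and fell at day 3 by 0.61 (adjusted p = 2.57e-07), in a group of controls that were themselves lower than at day 1. Cyp2u1, a hydroxylase of long-chain fatty acids, read 19.5, 20.5 and 18.4 TPM in Ctrl day 1, 14.1, 15.2 and 14.5 in Fzd5KO day 1, 8.85, 8.74 and 8.1 in Ctrl day 3 and 22.1, 24.5 and 23.4 in Fzd5KO day 3. It was lower at day 1 (−0.39 ± 0.059; adjusted p = 0.00108) and 2.73-fold higher at day 3 (1.35 ± 0.059; adjusted p = 5.21e-09), the largest difference between days of any member. The day 3 controls were its lowest libraries and Fzd5KO day 3 its highest. Cyp2d26 turned in the same way, from 267 to 202 TPM at day 1 and from 212 to 255 TPM at day 3, and its neighbour Cyp2d22 was higher at day 3 (20.6 and 33.1 TPM; adjusted p = 0.000456).

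Cyp2e1, which oxidizes ethanol and small solvents, was under 1 TPM in every library outside Ctrl day 3, where it read 2.22, 2.67 and 1.99 TPM against 0.17, 0.24 and 0.09 TPM in Fzd5KO. It passed the minimum through that control group alone, so the difference was set by the filter and is given without a test. Cyp2j9, an epoxygenase, was lower on both days, from 4.90 to 3.71 TPM and from 4.29 to 2.63 TPM (adjusted p = 0.0444 and 0.000944), but the day 1 change was −0.19 (adjusted p = 0.264) under median-of-ratios scaling and −0.16 (0.401) after quantile normalization. Its relative Cyp2j6 (108 and 96.6 TPM) and the extrahepatic Cyp2s1 (37.4 and 31.9 TPM) were called lower at day 1 and not called at day 3. The day 1 value of Cyp2j6 turned to 0.020 under median-of-ratios scaling, and that of Cyp2s1 went to −0.051 (adjusted p = 0.436), or −0.098 (0.165) after quantile normalization. Cyp2r1, a vitamin D hydroxylase, read at most 1.49 TPM and was called on neither day.

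**Figure D3:**
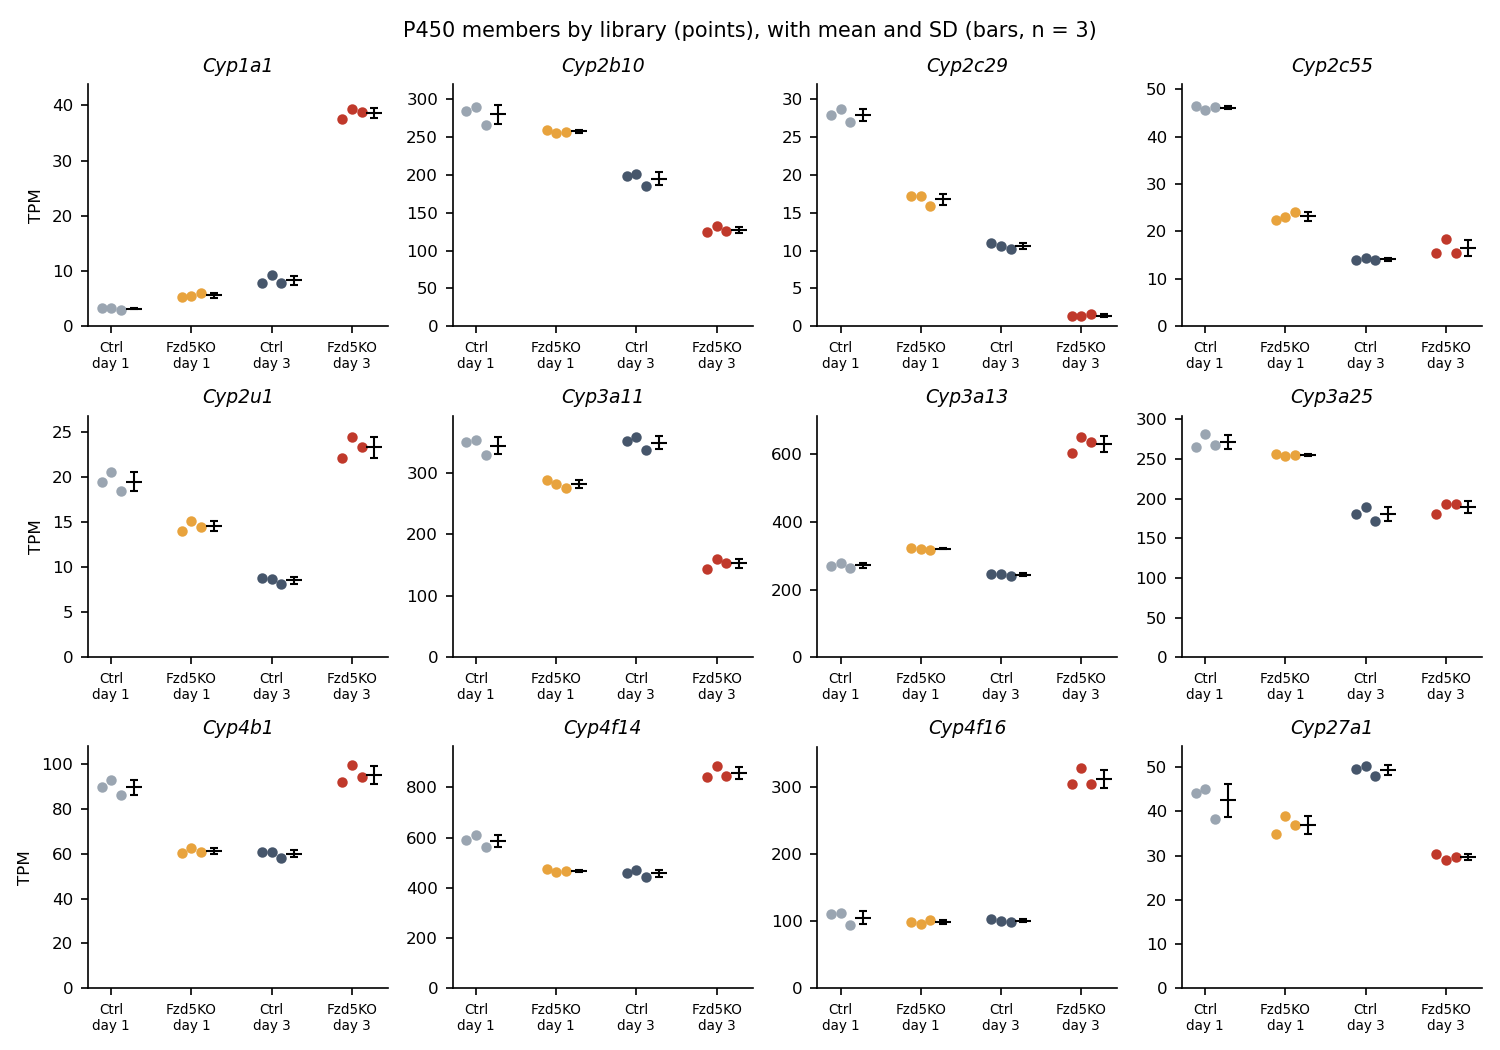
Points are the TPM of 12 P450 genes in each library of the 4 groups, with the mean and SD (bars, n = 3), each axis starting at 0. Cyp3a11 and Cyp3a13 part at day 3, and Cyp2u1 is lowest in Ctrl day 3 and highest in Fzd5KO day 3.

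Cyp4 enzymes hydroxylate fatty acids and eicosanoids at the end of the chain, and 4 of 8 rose at day 3, after 5 had fallen at day 1 (24.3% of all genes higher at day 3 and 22.8% lower at day 1). Their summed level was 1147 ± 47 TPM in Ctrl and 926 ± 10.9 in Fzd5KO at day 1, and 953 ± 25.9 and 1597 ± 59.7 at day 3 (SD, n = 3), with no overlap on either day and an exact permutation p of 0.1. Cyp4f14, a leukotriene B4 hydroxylase, read 590.5, 609 and 562 TPM in Ctrl day 1, 474, 464 and 466 in Fzd5KO day 1, 458, 473 and 442 in Ctrl day 3 and 842, 886 and 845 in Fzd5KO day 3. Its changes were −0.33 ± 0.037 (adjusted p = 0.000194) and 0.90 ± 0.037 (adjusted p = 3.18e-09). Cyp4f16 read 110.5, 113 and 93.97 TPM in Ctrl day 1, 99.4, 96.3 and 101 in Fzd5KO day 1, 103, 101 and 98.9 in Ctrl day 3 and 304, 329 and 305 in Fzd5KO day 3. The first 3 groups overlapped, and Fzd5KO day 3 stood 3.10-fold above its controls (1.62 ± 0.061; adjusted p = 1.62e-09). No other Cyp4 member rose as far. The summed enterocyte markers moved the same way between these groups at day 3, from 20580 to 21780 TPM in Ctrl up to 44810 to 46410 TPM in Fzd5KO. At day 1 they were also higher in Fzd5KO (27640 to 28490 against 25310 to 26430 TPM in Ctrl), when the Cyp4 sum was lower. By single gene, 6 of the 12 markers were called lower and 3 higher at day 1. The part of the markers in the Cyp4 result was not tested.

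Cyp4b1, which acts on short fatty acids and some protoxins, read 89.6, 92.99 and 86.3 TPM in Ctrl day 1, 60.4, 62.6 and 60.8 in Fzd5KO day 1, 60.8, 60.9 and 58.2 in Ctrl day 3 and 91.95, 99.7 and 94.1 in Fzd5KO day 3. It was lower at day 1 (−0.54 ± 0.041; adjusted p = 1.15e-05) and higher at day 3 (0.66 ± 0.041; adjusted p = 9.95e-08), with Ctrl day 1 and Fzd5KO day 3 at similar levels and the other groups below both. Cyp4f13 was called lower and then higher on a smaller scale (60.9, 51.9, 51.5 and 64.5 TPM in Ctrl day 1, Fzd5KO day 1, Ctrl day 3 and Fzd5KO day 3), but its day 1 change was −0.054 (adjusted p = 0.450) under median-of-ratios scaling and −0.12 (0.0972) after quantile normalization. Cyp4v3, a fatty acid hydroxylase, fell at day 1 from 221 to 174 TPM (adjusted p = 0.000122) and was not called at day 3 (169 to 176 and 161 to 172 TPM). Cyp4f40 was called lower at day 1 (79.6 and 69.4 TPM). Cyp4a10, a target of the fatty acid receptor Ppara in liver, reached 1 TPM only in Ctrl day 3, where it read 1.03, 1.16 and 1.39 TPM against 0.4, 0.47 and 0.71 TPM in Fzd5KO, a difference set by the minimum and given without a test. Cyp4f17 was called on neither day and ranged from 0.61 to 2.39 TPM within Ctrl day 1 alone.

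The 3 other P450s included 2 sterol hydroxylases that were called lower on both days. Cyp27a1, the side-chain hydroxylase of bile acid synthesis, read 44.2, 45.1 and 38.3 TPM in Ctrl day 1, 34.9, 38.9 and 36.9 in Fzd5KO day 1, 49.6, 50.3 and 47.97 in Ctrl day 3 and 30.2, 28.9 and 29.7 in Fzd5KO day 3. Groups overlapped at day 1 and were apart at day 3, with changes of −0.20 ± 0.061 (adjusted p = 0.0385) and −0.72 ± 0.061 (adjusted p = 1.42e-06). Its day 1 change was −0.026 (adjusted p = 0.818) under median-of-ratios scaling and −0.081 (0.430) after quantile normalization. Cyp39a1, an oxysterol hydroxylase, read 3.3, 4.27 and 3.26 TPM in Ctrl and 0.89, 1.39 and 0.9 TPM in Fzd5KO at day 3 (−1.16 ± 0.13; adjusted p = 1.33e-05), and 2.22 and 1.15 TPM at day 1 (adjusted p = 0.00983). Cyp20a1, an orphan P450, was called on neither day (5.28 to 7.57 and 4.47 to 5.9 TPM at day 3).

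Of the 12 glucuronosyltransferases, 6 fell at day 1, and 2 rose and 6 fell at day 3, where 22.8% of all genes were lower at day 1 and 24.3% higher and 38.5% lower at day 3. All 5 Ugt2 members fell at day 1, and 4 fell again at day 3 while the most abundant, Ugt2b34, rose. Ugt2b34 read 352, 358 and 344 TPM in Ctrl day 1, 271, 274 and 266 in Fzd5KO day 1, 262, 261 and 259 in Ctrl day 3 and 307, 327 and 323 in Fzd5KO day 3. Its changes were −0.38 ± 0.031 (adjusted p = 1.81e-05) and 0.29 ± 0.031 (adjusted p = 8.36e-06). Ugt2b35 read 19.6, 20.01 and 19.4 TPM in Ctrl day 1, 12.8, 12.01 and 12.5 in Fzd5KO day 1, 18.9, 16.4 and 15.96 in Ctrl day 3 and 7.35, 7.6 and 7.28 in Fzd5KO day 3. Fzd5KO lay below Ctrl without overlap on both days, with changes of −0.62 ± 0.063 (adjusted p = 8.26e-05) and −1.10 ± 0.063 (adjusted p = 4.4e-08). Ugt2b36 went from 8.93 to 4.35 TPM at day 1 and from 6.69 to 3.76 TPM at day 3 (adjusted p = 0.00013 and 7.48e-05). Ugt2b5 went from 23.5 to 12.4 TPM and from 11.8 to 7.21 TPM (adjusted p = 8.69e-05 and 6.75e-05). Ugt2a3 fell to 61.0% of Ctrl at day 3 (66.5 and 40.6 TPM; adjusted p = 6.44e-08).

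Among 7 Ugt1a members, 1 was called at day 1 and 3 at day 3, where 25.0% and 62.8% of all genes were called in either direction. Ugt1a1, the bilirubin-conjugating enzyme, read 164, 176 and 152 TPM in Ctrl day 1, 129, 134 and 134 in Fzd5KO day 1, 187, 195 and 184 in Ctrl day 3 and 163, 184 and 172 in Fzd5KO day 3. It fell at day 1 (−0.30 ± 0.056; adjusted p = 0.00334) and was not called at day 3. Ugt1a7c read 148 to 152 TPM in Ctrl and 191 to 197 TPM in Fzd5KO at day 3, a rise of 0.36 ± 0.030 (adjusted p = 1.08e-06). Ugt1a9, at 4.64, 4.44 and 4.6 TPM in Ctrl and 1.46, 1.43 and 1.88 TPM in Fzd5KO, fell at day 3 (−1.11 ± 0.14; adjusted p = 3.97e-05), and Ugt1a6b fell from 23.01 to 17.8 TPM (adjusted p = 0.00558, or 0.0603 under median-of-ratios scaling). All Ugt1a genes use the same last exons, so 52.1 to 79.8% of their 50-base words occur in another gene and the split of reads among them is uncertain. The Ugt genes summed to 849.7 ± 20.2 TPM in Ctrl and 697 ± 6.77 in Fzd5KO at day 1 (SD, n = 3; exact permutation p = 0.1). At day 3 the sums were 766 ± 12 and 799.8 ± 23.5 TPM with overlapping libraries (exact permutation p = 0.2).

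Enterocyte marker sums were higher in Fzd5KO at day 3 and also at day 1, and their part in the Sult result was not tested. Of the 5 sulfotransferases, 4 rose in Fzd5KO at day 3 (24.3% of all genes higher). Their sum was 286 ± 4.24 TPM in the controls, below 438 ± 16.9 TPM in Fzd5KO (SD, n = 3; exact permutation p = 0.1), after 389.9 ± 15.7 and 352 ± 5.07 TPM at day 1. Sult2b1, which sulfates cholesterol and other hydroxysteroids, read 91.4, 92.3 and 83.4 TPM in Ctrl day 1, 79.1, 81.7 and 83.8 in Fzd5KO day 1, 57.1, 57.6 and 56.6 in Ctrl day 3 and 111, 124 and 118 in Fzd5KO day 3. The groups overlapped at day 1 and stood apart at day 3, at 2.06-fold (1.03 ± 0.049; adjusted p = 9.84e-09). Sult1b1, a phenol and thyroid hormone sulfotransferase, read 214, 215 and 198 TPM in Ctrl day 1, 187, 185 and 191 in Fzd5KO day 1, 146, 144 and 142 in Ctrl day 3 and 217, 231 and 215 in Fzd5KO day 3. It rose at day 3 by 0.62 ± 0.039 (adjusted p = 1.1e-07). Its fall of 0.15 at day 1 (adjusted p = 0.0166) turned to 0.020 under median-of-ratios scaling. Sult1d1, which sulfates catecholamines, read 81.1 and 65.8 TPM at day 1 and 65.9 and 72.9 TPM at day 3. It was called lower and then higher, and the day 3 value turned to −0.0019 after quantile normalization.

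Sult6b2 rose on both days and is the member with the largest rise at day 1. It read 9.97, 9.2 and 9.21 TPM in Ctrl day 1, 15.6, 16.7 and 17.1 in Fzd5KO day 1, 18.2, 15.7 and 18.03 in Ctrl day 3 and 25.3, 27.8 and 23.6 in Fzd5KO day 3. The changes were 0.74 ± 0.074 (adjusted p = 8.07e-05) and 0.54 ± 0.074 (adjusted p = 6.59e-05), and it also rose with time in Ctrl. Sult1c2 was under 1 TPM in all Fzd5KO libraries and passed the minimum through the controls, so its day 3 values of 1.97, 1.53 and 1.77 TPM in Ctrl and 0.37, 0.57 and 0.6 TPM in Fzd5KO are given without a test.

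Of the 19 glutathione transferases, 1 rose and 4 fell at day 1, and 6 rose and 5 fell at day 3. The shares of all genes were 2.13% and 22.8%, and 24.3% and 38.5%, so the falls were no more frequent than among all genes. Of the 7 Gstm genes, which encode the mu class, 3 fell at day 1 and 4 at day 3. The day 3 change of Gstm5, 1 of the 4, was −0.089 (adjusted p = 0.336) under median-of-ratios scaling and −0.10 (0.266) after quantile normalization. Gstm1 read 139, 148 and 130.1 TPM in Ctrl day 1, 93.2, 89.7 and 92.4 in Fzd5KO day 1, 77.8, 69.1 and 70.8 in Ctrl day 3 and 51.2, 51.8 and 50.3 in Fzd5KO day 3. Each Fzd5KO group lay below its controls, with changes of −0.59 ± 0.053 (adjusted p = 3.42e-05) and −0.50 ± 0.053 (adjusted p = 8.32e-06), and both genotypes were lower at day 3 than at day 1. Gstm3 ran beside it, with means of 192, 138, 109.9 and 82.6 TPM in the same order of groups. Gstm2 read 21.6, 21.1 and 18.4 TPM in Ctrl day 1, 13.6, 13.2 and 13.8 in Fzd5KO day 1, 18.9, 20.2 and 15.6 in Ctrl day 3 and 8.12, 9.22 and 8.42 in Fzd5KO day 3. It fell to 47.1% of Ctrl at day 3 (−0.999 ± 0.091; adjusted p = 2.33e-06). Gstm4 went the other way at day 3, with 3.48 to 5.21 TPM in Ctrl and 6.69 to 8.15 TPM in Fzd5KO (0.63 ± 0.13; adjusted p = 0.00146). Gstm6 and Gstm7 were called on neither day.

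In the alpha class none of the 4 Gsta genes was called by limma at day 1, though 3 had an unadjusted p under 0.05. At day 3, 2 were called higher. Of all genes, 25.0% were called in either direction at day 1 and 24.3% were higher at day 3. Gsta1, which detoxifies lipid peroxidation products, read 486, 491 and 436 TPM in Ctrl day 1, 445, 417 and 437 in Fzd5KO day 1, 265, 277 and 274 in Ctrl day 3 and 468, 504 and 491 in Fzd5KO day 3. Control libraries dropped between the days and Fzd5KO libraries did not, so at day 3 the groups differed 1.79-fold (0.84 ± 0.049; adjusted p = 5.17e-08). Of the 50-base words of Gsta1, 90.5% occur in other genes, among them Gsta2, and its TPM may hold reads of those copies. Gsta2 (2.24 to 2.51 and 1.65 to 1.94 TPM at day 3) and Gsta4 (73.97 to 77.4 and 73.5 to 81.8 TPM) were called on neither day. Gsta3 was called higher at day 3 (10.9 and 13.4 TPM).

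Gstp1, of the pi class and among the most abundant members, was called on neither day, with 497 to 552 TPM in Ctrl and 504 to 534 TPM in Fzd5KO at day 1 and 441 to 485 and 451 to 519.6 TPM at day 3. Its neighbour Gstp2 was called higher at day 3, with 49.96, 46.4 and 48.7 TPM in Ctrl and 117, 74.8 and 80.8 TPM in Fzd5KO (0.87 ± 0.20; adjusted p = 0.00276), where replicate 1 stood above the other libraries. Of its 50-base words, 54.3% occur in other genes, mainly Gstp1. Gstp3 was called higher on both days, from 5.32 to 8.36 TPM (adjusted p = 0.0128) and from 6.13 to 8.02 TPM (adjusted p = 0.0493). Gsto1, which reduces dehydroascorbate, rose at day 3, with 237 to 250.5 TPM in Ctrl and 302 to 306 TPM in Fzd5KO (0.31 ± 0.029; adjusted p = 2.78e-06). Gstt1, of the theta class, fell from 34.05, 34.2 and 31.5 TPM to 16.5, 19.4 and 19.6 TPM (−0.81 ± 0.070; adjusted p = 1.36e-06), while its neighbours Gstt2 and Gstt3 were not called. Gstk1, of the kappa class, was called lower at day 1 (41.6 and 34.6 TPM), by TPM as deposited.

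**Figure D4:**
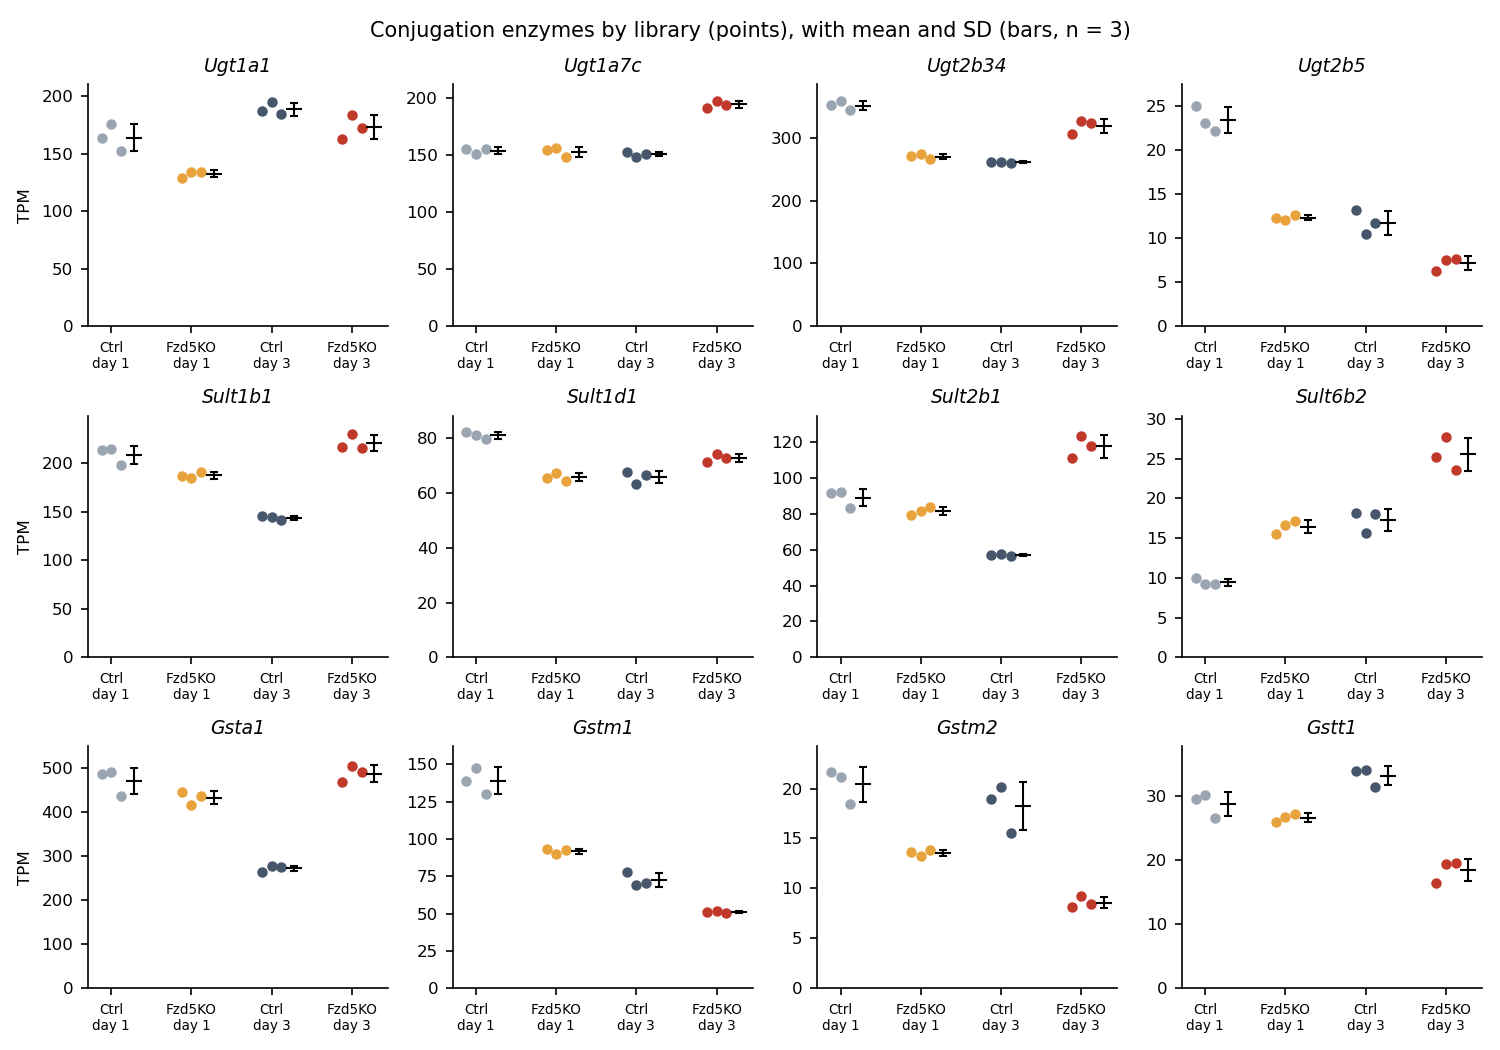
Points are the TPM of 12 Ugt, Sult and Gst genes in each library, with the mean and SD (bars, n = 3) and axes from 0. Sult2b1, Sult1b1 and Gsta1 are lowest in Ctrl day 3, whereas Gstm1, Gstm2, Gstt1 and Ugt2b5 are lowest in Fzd5KO day 3.

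Some calls lay close to the threshold and were lost when 1 library was left out. At day 1, Cyp27a1 lost its call (adjusted p 0.0503 to 0.136) without Ctrl day 1 replicate 1 or 2, Fzd5KO day 1 replicate 1 or 3, Ctrl day 3 replicate 2 or Fzd5KO day 3 replicate 3, since all libraries share the estimate of spread. Cyp2j9 lost it (0.0525 to 0.148) without Ctrl day 1 replicate 1 or 2, Fzd5KO day 1 replicate 2 or 3, any Ctrl day 3 library or Fzd5KO day 3 replicate 2. For Cyp4f40 (0.0695 to 0.0793) the libraries were Ctrl day 1 replicates 1 and 2 and Fzd5KO day 1 replicates 2 and 3. For Sult1b1 (0.0501 to 0.0639) they were replicates 1 and 2 of both day 1 groups, and for Gstk1 (0.0513 to 0.063) Ctrl day 1 replicate 2 and Fzd5KO day 1 replicates 2 and 3. At day 3, Gstp3 kept its call only without Fzd5KO day 3 replicate 2 or Ctrl day 3 replicate 1 and lost it without any of the other 10 libraries (0.0518 to 0.181). Gstm5 lost it (0.0911 to 0.127) without Fzd5KO day 3 replicate 3 or Ctrl day 3 replicate 1 or 2, and Gsta3 (0.0556) without Fzd5KO day 3 replicate 3. No named member reversed in direction when any 1 library was left out.

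Neighbours in the genome did not always move together. On GRCm38, 45 of the 66 members lie in 12 groups of the same subfamily in which no gap between neighbouring members is over 500000 bases. Of all genes, 22.8% were called lower at day 1, and 24.3% higher and 38.5% lower at day 3. The 5 Cyp2c genes at chr19:39007019-39741054 were all called lower at day 1, with the calls of Cyp2c65 and Cyp2c66 lost under both other scalings. At day 3 Cyp2c29, Cyp2c66 and Cyp2c68 were lower, Cyp2c55 higher and Cyp2c65 not called. At chr5:86889767-87140318 the 4 Ugt2b genes fell at day 1, and Ugt2b34 alone was higher at day 3 beside 3 that were lower. At chr17:32506050-32947402, 3 of 5 Cyp4f genes were higher at day 3 and the other 2 were not called. At chr3:107895821-108044894, 4 Gstm genes were lower, Gstm4 higher and 2 not called, with the call of Gstm5 lost under both other scalings. Cyp3a11 and Cyp3a25 share a group at chr5:145854426-146009618, while Cyp3a13 lies apart at chr5:137892932-137921619, and none of its 50-base words occur in another gene. For Cyp3a11, 6.73% of the words recur elsewhere, most often in Cyp3a41a, Cyp3a41b and Cyp3a44. Cyp2c65 and Cyp2c66 share 20.2% and 19.5% of theirs with each other, and 43.3% of those of Cyp2c68, 41.7% of those of Ugt2b5 and 28.8% of those of Gstm3 recur elsewhere, so the split of reads to these genes is uncertain. Of the words of Cyp4f16, 17.4% recur, mainly in Cyp4f37.

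Genes that supply and export for these enzymes were taken from a list of 45, of which 40 were tested. Here 22 rose and 6 fell at day 3, and 3 rose and 17 fell at day 1, with median changes of −0.13 at day 1 and 0.28 at day 3, against −0.14 for all genes on both days. Of all genes, 24.3% rose and 38.5% fell at day 3, and 2.13% and 22.8% at day 1. Por, the reductase that all microsomal P450s draw on, read 175, 172 and 164 TPM in Ctrl day 1, 211, 209 and 205 in Fzd5KO day 1, 167, 183 and 173 in Ctrl day 3 and 410.1, 409 and 419.8 in Fzd5KO day 3. It was higher on both days, by 0.29 ± 0.037 (adjusted p = 0.000445) and 1.24 ± 0.037 (adjusted p = 2.86e-10). Ugdh, which makes UDP-glucuronic acid, rose at day 3, from a mean of 126 to 256 TPM (1.02 ± 0.043; adjusted p = 3.85e-09). Papss2, which makes the sulfate donor, rose from 103 to 182 TPM (0.81 ± 0.034; adjusted p = 3.8e-09) and was also higher at day 1 (0.20 ± 0.034; adjusted p = 0.00199). Gclc, which limits glutathione synthesis, was called on neither day (30.6 and 33.5 TPM at day 3), and neither was the antioxidant gene Nqo1 (19.8 and 21.98 TPM).

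The export pumps Abcc2 and Abcb1a were lowest in Ctrl day 3. Abcc2, which exports glucuronide and glutathione conjugates, read 412, 433 and 401 TPM in Ctrl day 1, 346, 339.9 and 340.1 in Fzd5KO day 1, 108, 110.0 and 98.4 in Ctrl day 3 and 415, 388 and 399.9 in Fzd5KO day 3. Ctrl day 3 stood apart from all other groups, so the day 3 change was 1.92 ± 0.045 (adjusted p = 6.18e-11) after a fall of 0.28 at day 1 (adjusted p = 0.00171, or 0.0817 under median-of-ratios scaling). Abcb1a, the P-glycoprotein pump, had means of 304, 243, 153 and 318 TPM in Ctrl day 1, Fzd5KO day 1, Ctrl day 3 and Fzd5KO day 3 (1.05 ± 0.029 at day 3; adjusted p = 1.5e-10). Ggt1, which trims glutathione conjugates at the brush border, had 548, 508, 357 and 806 TPM in the same order (adjusted p = 1.25e-09 at day 3).

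The sensing factors Nr1i2, Nr1i3, Ahr and Nfe2l2 changed by at most 0.23 where they were called. Of 46 regulators tested, 1 rose and 13 fell at day 1, and 17 rose and 16 fell at day 3, with medians of −0.11 and 0.056. The shares of all genes were 2.13% and 22.8% at day 1, and 24.3% and 38.5% at day 3. Nr1i2 read 45.8, 47.4 and 44.4 TPM in Ctrl day 1, 45.9, 44.3 and 47.7 in Fzd5KO day 1, 52.2, 49.9 and 47.2 in Ctrl day 3 and 59.7, 58.02 and 57.9 in Fzd5KO day 3. It rose by 0.23 ± 0.046 at day 3 (adjusted p = 0.000951), when its usual target Cyp3a11 fell. Nr1i3 was called on neither day (47.5 and 50.2 TPM at day 3), and Cyp2b10 fell beside it. Ahr had means of 6.15 and 5.22 TPM in Ctrl and Fzd5KO at day 3 and was not called, while Cyp1a1 rose. Nfe2l2 rose at day 3 from 167 to 191 TPM (adjusted p = 0.000313), but the value turned to −0.034 after quantile normalization. These values are transcript levels. The activity of the sensing factors was not measured, and their part in the enzyme results was not tested.

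Hnf4a, a factor of enterocyte genes, moved by −0.13 ± 0.041 and 0.11 ± 0.041 (adjusted p = 0.0392 and 0.0342). Its signs turned to 0.044 at day 1 under median-of-ratios scaling and to −0.043 at day 3 after quantile normalization. Its day 1 call was lost (adjusted p 0.0502 to 0.137) without any Fzd5KO library or Ctrl day 1 replicate 1 or 2. Its day 3 call was lost (0.0546 to 0.127) without any Fzd5KO day 3 library or Ctrl day 3 replicate 3. Vdr, the vitamin D receptor, fell from 87.8 to 75.9 TPM at day 1 (adjusted p = 0.0295) and was not called at day 3. The day 1 call was lost without replicate 1 or 2 of Fzd5KO day 1 or replicate 2 or 3 of Ctrl day 1 (0.0763 to 0.104). The day 1 change of Vdr was −0.038 (adjusted p = 0.721) under median-of-ratios scaling and −0.094 (0.383) after quantile normalization. Maf had 45.1, 33.4, 21.5 and 49.7 TPM in Ctrl day 1, Fzd5KO day 1, Ctrl day 3 and Fzd5KO day 3 (adjusted p = 1.87e-09 at day 3).

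Clock genes drive daily rhythms in many detoxification genes, and some of them, among these Dbp, Nr1d1 and Arntl, set Ctrl day 3 apart. Dbp, a clock output factor, read 35.8, 35.2 and 34.7 TPM in Ctrl day 1, 29.3, 28.2 and 29.8 in Fzd5KO day 1, 3.44, 2.51 and 2.64 in Ctrl day 3 and 20.7, 24.7 and 23.6 in Fzd5KO day 3. Nr1d1, a repressor of the clock, read 21.3, 21.7 and 20.8 TPM in Ctrl day 1, 12.1, 12.6 and 12.5 in Fzd5KO day 1, 0.88, 0.86 and 0.47 in Ctrl day 3 and 18.1, 18.5 and 17.2 in Fzd5KO day 3. Arntl, which peaks when those are low, read 7.85, 7.28 and 6.58 TPM in Ctrl day 1, 6.82, 7.01 and 7.28 in Fzd5KO day 1, 25.03, 25.7 and 24.1 in Ctrl day 3 and 7.15, 7.3 and 6.26 in Fzd5KO day 3. For all 3 genes the day 3 controls stood apart from the other 9 libraries, which is also where Cyp2u1, Cyp2c23, Sult2b1, Gsta1 and Abcc2 were lowest. Not all clock genes did this. Per1 read 7.67 to 9.64 TPM in Ctrl day 3 and 6.68 to 9.93 TPM in the other libraries. Hlf was low in both day 3 groups, at 0.41 to 0.86 TPM in Ctrl and 0.15 to 0.49 TPM in Fzd5KO. The sources used here do not give the hour of collection, and the part of the clock genes in the enzyme results was not tested.

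**Figure D5:**
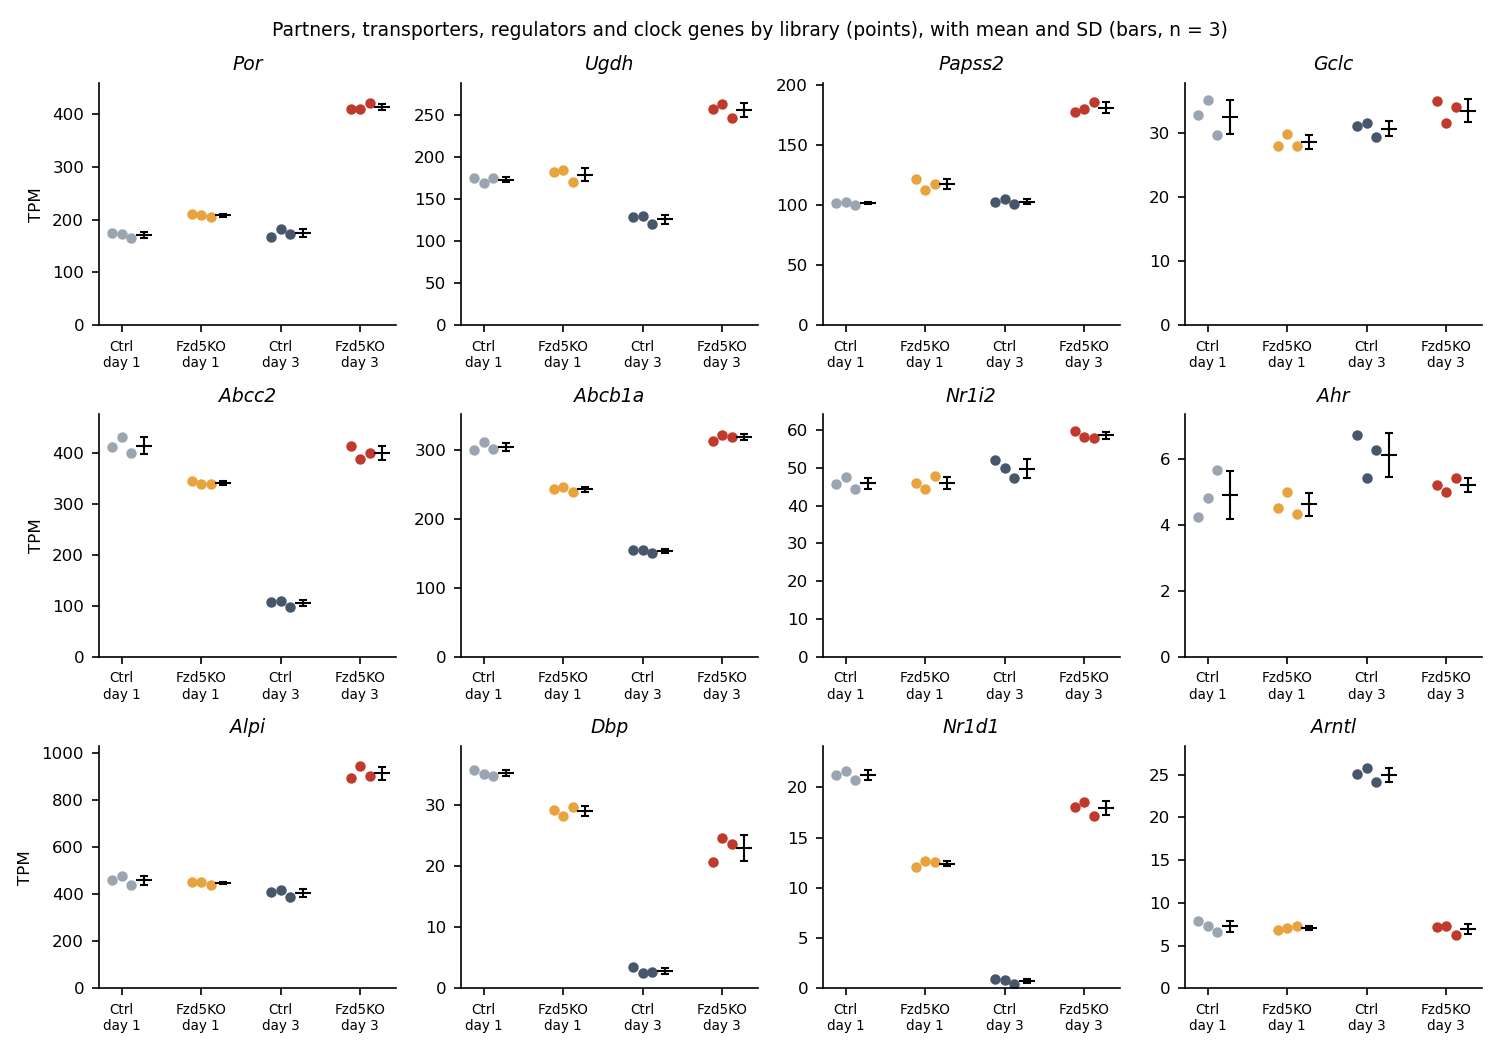
Points are the TPM of partner, transporter, regulator, enterocyte (Alpi) and clock genes in each library, with the mean and SD (bars, n = 3) and axes from 0. Por, Ugdh, Papss2 and Alpi are highest in Fzd5KO day 3, while Abcc2, Dbp and Nr1d1 are lowest and Arntl highest in Ctrl day 3.

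Between day 1 and day 3 more members fell than rose in the control epithelium. In Ctrl, 32 members fell and 14 rose, where 11.0% of all genes fell and 25.0% rose (36.1% in either direction), and the median was −0.18 against 0.12 for all genes. In Fzd5KO, 20 fell and 24 rose (10.5% and 34.4% of all genes; 44.9% in either direction), with a median of 0.053 against 0.11. Of the 14 rises in Ctrl, those of Cyp2e1 and Cyp4a10 were set by the filter, since both passed the minimum only through Ctrl day 3. These contrasts share libraries with the genotype comparisons and are given only as values. The rises depend on the scaling: Ctrl had 8 higher and 36 lower after quantile normalization and 6 higher and 39 lower under median-of-ratios scaling, and Fzd5KO had 12 and 27, and 18 and 25. All genes called in either direction under these 2 scalings numbered 4521 and 4339 in Ctrl and 5895 and 6328 in Fzd5KO. Without Ctrl day 1 replicate 3, 8 rather than 14 members rose in Ctrl. The largest falls in Ctrl were Cyp2c55 (−1.64 ± 0.062), Cyp2c29 (−1.31 ± 0.063), Cyp2c23 (−1.26 ± 0.13) and Cyp2u1 (−1.10 ± 0.059), and the largest rises, leaving out the filter-set Cyp2e1, Cyp1a1 (1.14 ± 0.076) and Sult6b2 (0.80 ± 0.074). In Fzd5KO the largest were the falls of Cyp2c29 (−2.88 ± 0.063) and Cyp2c66 (−1.74 ± 0.045) and the rises of Cyp1a1 (2.59 ± 0.076) and Cyp4f16 (1.65 ± 0.061). Cyp3a11 was not called with time in Ctrl and fell by 0.88 in Fzd5KO (adjusted p = 3.55e-08).

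Most enzyme genes of these families were not part of the measured set. Of the 95 names under the minimum, 28 were listed at 0 in every library, among them the liver P450s Cyp2c50 and Cyp4a12a and the liver sulfotransferase Sult2a1, and 67 were above 0 in some. The highest were Cyp4f18 (at most 1.47 TPM), Cyp4f15 (1.31) and Cyp2c67 (1.29), with at least 1 TPM in only 1 or 2 libraries. Cyp24a1, which inactivates vitamin D, reached at most 0.02 TPM, Cyp26b1, a retinoic acid hydroxylase, 0.12, and Sult1a1 0.82. Of the 66 members, 59 were at or above 1 TPM in all 12 libraries. Cyp2e1, Cyp4a10, Cyp2r1, Sult1c2, Cyp2c23, Cyp4f17 and Cyp39a1 passed in only some, so genes such as Cyp2e1 that passed through 1 high group had to differ.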

How the data were processed

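Total RNA of 12 jejunal epithelial samples was sequenced from stranded libraries, per the labels' protocols, and bcl2fastq 2.18, STAR 2.7.3a, RSEM and the build mm10 are named in the submitters' processing notes. The authors deposited one table of TPM, transcript abundances per length whose sum is fixed for every library, so no depth, count test or counting interval could be had; their number of libraries limits the precision. Groups were read from the titles, and 0 columns belonged to other samples.

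The 14510 genes that reached 1 TPM in 3 or more libraries were kept and log2(TPM + 1) was fitted with limma 3.58.1 (R 4.3.3): means of the 4 groups, all 12 libraries sharing the spread, a mean-variance trend, and Benjamini-Hochberg adjustment over all tested genes. The steps were tested on simulated data. Sums were compared by exact permutation. Members and lists were chosen with earlier results of these data known. Genes named with values were, per comparison, up to 10 called members with the largest rise and 10 with the largest fall (5 each for the difference between days), the 3 most abundant members of each family, a list of 40 enzymes of known role, members compared within a gene cluster, and from each list of other genes the 6 with the smallest p plus 13 of known role.

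Positions and exons came from GENCODE M21, promoters from RefSeq (GRCm38.p6), and shared sequence from 50-base words of the transcripts. Alternatives were other pseudocounts, no minimum, quantile or median-of-ratios scaling, no trend, a replicate block, fits to the compared groups alone, and leaving out each library. Python 3.11.15 with pandas 2.3.3 and matplotlib 3.10.9 was used.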

Additional observations from a re-analysis of the deposited data

Results flagged for a closer look

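By limma's test of the difference itself, the change between Fzd5KO and Ctrl differed between day 1 and day 3 for 9 members listed here. The difference is the day 3 change minus the day 1 change in log2(TPM + 1), given with its adjusted p. Cyp2u1 differed by 1.74 (adjusted p = 2.73e-08), Cyp4f16 by 1.71 (adjusted p = 4.08e-08), Cyp1a1 by 1.45 (adjusted p = 8.34e-07), Cyp2c23 by 1.28 (adjusted p = 0.000134) and Cyp4f14 by 1.23 (adjusted p = 1.22e-08). Of these, Cyp2u1, Cyp2c23 and Cyp4f14 were lower in Fzd5KO at day 1 and higher at day 3. On the other side, Cyp2c29 differed by −1.56 (adjusted p = 1.03e-07), Cyp2c66 by −1.005 (adjusted p = 2.19e-07), Cyp3a11 by −0.90 (adjusted p = 4.95e-07) and Ugt1a9 by −0.90 (adjusted p = 0.00381). Cyp2e1 has a difference of −1.15, given without a test, since it passed the minimum only through Ctrl day 3, the group where it was high. Together these are the 5 largest differences in each direction among 35 called members of 66, where 44.3% of all genes were called in either direction. The 35 include Cyp2e1 and Cyp4a10, which both passed the minimum only through Ctrl day 3. Groups of 3 libraries were not tested for single libraries that stand apart.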

How the results depend on the processing

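The day 1 comparison and the comparisons over time depended most on the scaling. Members called lower at day 1 numbered 31 on TPM as deposited and 18 under median-of-ratios scaling. All genes called at day 1 numbered 3622, 1771 after quantile normalization and 2216 under median-of-ratios scaling. Members called higher over time numbered 14 in Ctrl, or 8 and 6 under those scalings, and 24 in Fzd5KO, or 12 after quantile normalization. The scalings moved the median of all genes at day 1 from −0.14 to −0.00040 and 0.0098, and at day 3 from −0.14 to −0.038 and −0.013. Values whose sign turned were the day 1 changes of Sult1b1 (0.020), Cyp2j6 (0.020), Cyp2c65 (0.017) and Hnf4a (0.044) under median-of-ratios scaling, and the day 3 changes of Sult1d1 (−0.0019), Nfe2l2 (−0.034) and Hnf4a (−0.043) after quantile normalization.

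Of 162 results for single genes, calls were lost with the direction kept for 20 after quantile normalization and 22 under median-of-ratios scaling, beside the 3 and 4 whose sign turned and which were not called either. They were lost for 10 without a minimum, 4 without the trend, 9 of 152 in fits to the compared groups alone, and none with a pseudocount of 0.1 or 5. Leaving out 1 library at a time gave 4 to 4 members higher and 26 to 37 lower at day 1, 21 to 23 higher and 21 to 24 lower at day 3, and 20 to 25 higher and 11 to 14 lower for the difference between days. Over time it gave 8 to 16 higher and 28 to 33 lower in Ctrl, and 20 to 24 higher and 17 to 20 lower in Fzd5KO. The replicate numbers did not pair the samples (correlations of −0.069 to 0.033 over 12 pairs, 2 best with their own number). With a replicate block, 4 members were higher and 31 lower at day 1 and 23 and 23 at day 3, and 1 of the 162 calls was lost (Cyp2j9 at day 1; adjusted p = 0.0708 by limma). The depth behind the TPM is unknown, so what it limits could not be given.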
